A study of Mus musculus with 30 samples.

Results

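The expression of 10 circadian clock output genes was measured in the dorsal hippocampus of trained and home-cage mice. Dbp, Tef, Hlf, Nfil3, Nr1d1, Nr1d2, Ciart, Bhlhe40, Bhlhe41 and Rorb were taken by symbol from an RNA-seq table of 24883 rows. They were selected because Dbp and Ciart had been seen to be lower after training in these same libraries. Values against home-cage mice are therefore given as a description, with no p for any of the 10 genes, and nothing is read from which of them pass a threshold there.

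The study used young adult male C57BL/6J mice of wild-type genotype and asked how CREST, a neuronal chromatin regulator, acts during memory consolidation. Each of the 5 conditions held 6 libraries, 1 per mouse, made from a hemisphere of the dorsal hippocampus. VEH-HC mice received the jetPEI transfection reagent without plasmid and were only handled in the home cage. VEH-T10 mice received the same vehicle and 10 min of object location memory (OLM) training, which is the threshold period, and VEH-T3 mice received the vehicle and 3 min, which is subthreshold. Y397F-T10 mice carried a plasmid for the phospho-null CREST point mutant before 10 min of training. Y397D-T3 mice carried one for the phospho-mimetic mutant before 3 min of training. The names phospho-null and phospho-mimetic are those of the sample titles. The study could not detect phosphorylation at this site and calls both simply point mutants. Both plasmids express tagged mouse CREST from a short CaMK2 promoter, which is active mainly in excitatory neurons, on top of the endogenous gene. Tissue was collected 1 h after training. No library came from mice with a plasmid for unmutated CREST or from untrained mice with a plasmid, so the plasmid and its mutation cannot be told apart. Behavioural testing in the study was confined to the light phase, from the early morning until noon, which bounds the collection of the trained mice to that window and the hour after it. The hour of each mouse and the window for the home-cage mice are not given in the sources used here. Under the study's OLM procedure, mice were also habituated to the chamber on several days before training, whereas home-cage mice were only handled. For these rhythmic genes, training, habituation and time of day therefore cannot be told apart in a comparison with VEH-HC.

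The circadian clock is a transcriptional loop in which the activators BMAL1 (Arntl) and CLOCK bind E-box sequences and switch on their own repressors, the Period and Cryptochrome genes, together with many output genes. The output genes studied here are themselves transcription factors or repressors: Dbp, Tef and Hlf are PAR bZIP activators that bind D-box sequences, and Nfil3 is a repressor that competes for the same sequences. Nr1d1 and Nr1d2 encode the REV-ERB nuclear receptors, which repress Arntl, and Rorb encodes a receptor of the opposing ROR family. Bhlhe40 and Bhlhe41 encode the DEC repressors and Ciart encodes CHRONO, all of which act against BMAL1 and CLOCK. In the hippocampus, clock genes oscillate and several are also known to respond to neuronal activity.

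The promoter windows of Ciart, Dbp and Nr1d1 are shown because Dbp and Ciart decided the selection and Nr1d1 was the member whose trained mice all lay below all home-cage mice in every condition. Each window holds 250 bases before the transcription start and 50 bases from the start on, from RefSeq on GRCm38.p6, written 5′ to 3′ on the strand of the gene. Capitals mark the E-box letters CACGTG, which read the same on both strands.
Ciart, chr3:95882179-95882478, minus strand: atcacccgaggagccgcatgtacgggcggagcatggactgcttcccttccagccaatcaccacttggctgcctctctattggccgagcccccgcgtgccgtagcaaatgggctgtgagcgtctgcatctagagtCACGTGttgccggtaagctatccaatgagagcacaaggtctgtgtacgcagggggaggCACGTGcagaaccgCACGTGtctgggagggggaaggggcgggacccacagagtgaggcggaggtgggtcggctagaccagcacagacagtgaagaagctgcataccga
Dbp, chr7:45704997-45705296, plus strand: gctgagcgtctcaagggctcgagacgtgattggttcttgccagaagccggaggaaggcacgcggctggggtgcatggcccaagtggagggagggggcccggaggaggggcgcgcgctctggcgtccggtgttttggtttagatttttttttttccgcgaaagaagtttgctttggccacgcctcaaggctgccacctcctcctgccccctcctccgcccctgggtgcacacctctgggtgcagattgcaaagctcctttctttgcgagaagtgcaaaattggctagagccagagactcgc
Nr1d1, chr11:98775328-98775627, minus strand: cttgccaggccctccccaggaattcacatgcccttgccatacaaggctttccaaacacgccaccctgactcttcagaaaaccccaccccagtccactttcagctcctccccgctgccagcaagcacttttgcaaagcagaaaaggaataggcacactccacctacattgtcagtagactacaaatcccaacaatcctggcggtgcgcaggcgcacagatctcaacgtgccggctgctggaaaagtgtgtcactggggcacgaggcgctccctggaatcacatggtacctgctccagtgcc

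The Ciart window held 3 copies of CACGTG, beginning at positions -116, -58 and -44 from the start. Among all 32851 promoter windows, 7.15% held at least 1 copy and 0.0883% held 3 or more. The windows of Dbp and Nr1d1 held none of the motifs searched. Of the 10 genes, 9 had a window and these made up 11 windows, of which 4 held CACGTG. The other matches are shown as 30-base sites because they are the remaining members with a clock-related or activity-related motif, with the motif in capitals.
Tef, chr15:81802423-81802722, plus strand: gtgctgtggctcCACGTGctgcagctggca
Tef, chr15:81811164-81811463, plus strand: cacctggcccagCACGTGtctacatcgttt
Bhlhe41, chr6:145865371-145865670, minus strand: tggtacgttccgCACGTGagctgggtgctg
Nfil3, chr13:52980990-52981289, minus strand: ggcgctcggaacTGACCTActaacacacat
Hlf, chr11:90390868-90391167, minus strand: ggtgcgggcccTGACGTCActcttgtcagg

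The coordinates of these sites are those of the whole promoter window that holds them. Tef and Bhlhe41 hold CACGTG. The capitals in Nfil3 are the ROR and REV-ERB element TAGGTCA read from the opposite strand, which 2.61% of all windows held. The capitals in Hlf are the cAMP response element TGACGTCA, which was held by 1.79% of all windows, and its short form TGACG, which overlaps it, by 20.8%. Hlf and Nfil3 held the short form. No window of the 10 genes held the D-box letters TTATGTAA (0.938% of all windows) or TTACGTAA (0.119%), or the element TGGGTCA (3.98%). All motifs were searched on both strands, and a match is a description of the letters only.

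The 10 genes spanned a wide range of levels in this tissue (means over 30 libraries in FPKM, fragments mapped per kilobase of transcript and scaled to library size, a level per length). Tef was the highest at 83.2 FPKM, above 93.3% of the 13184 rows tested. Nr1d1 followed at 44.9, Bhlhe40 at 34.9, Dbp at 29.7, Hlf at 20.5 and Nr1d2 at 14.96. The low members were Bhlhe41 at 8.37, Nfil3 at 5.31, Ciart at 4.39 and Rorb at 1.67. All 10 passed the filter of a mean of at least 1 FPKM.

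**Figure D1:**
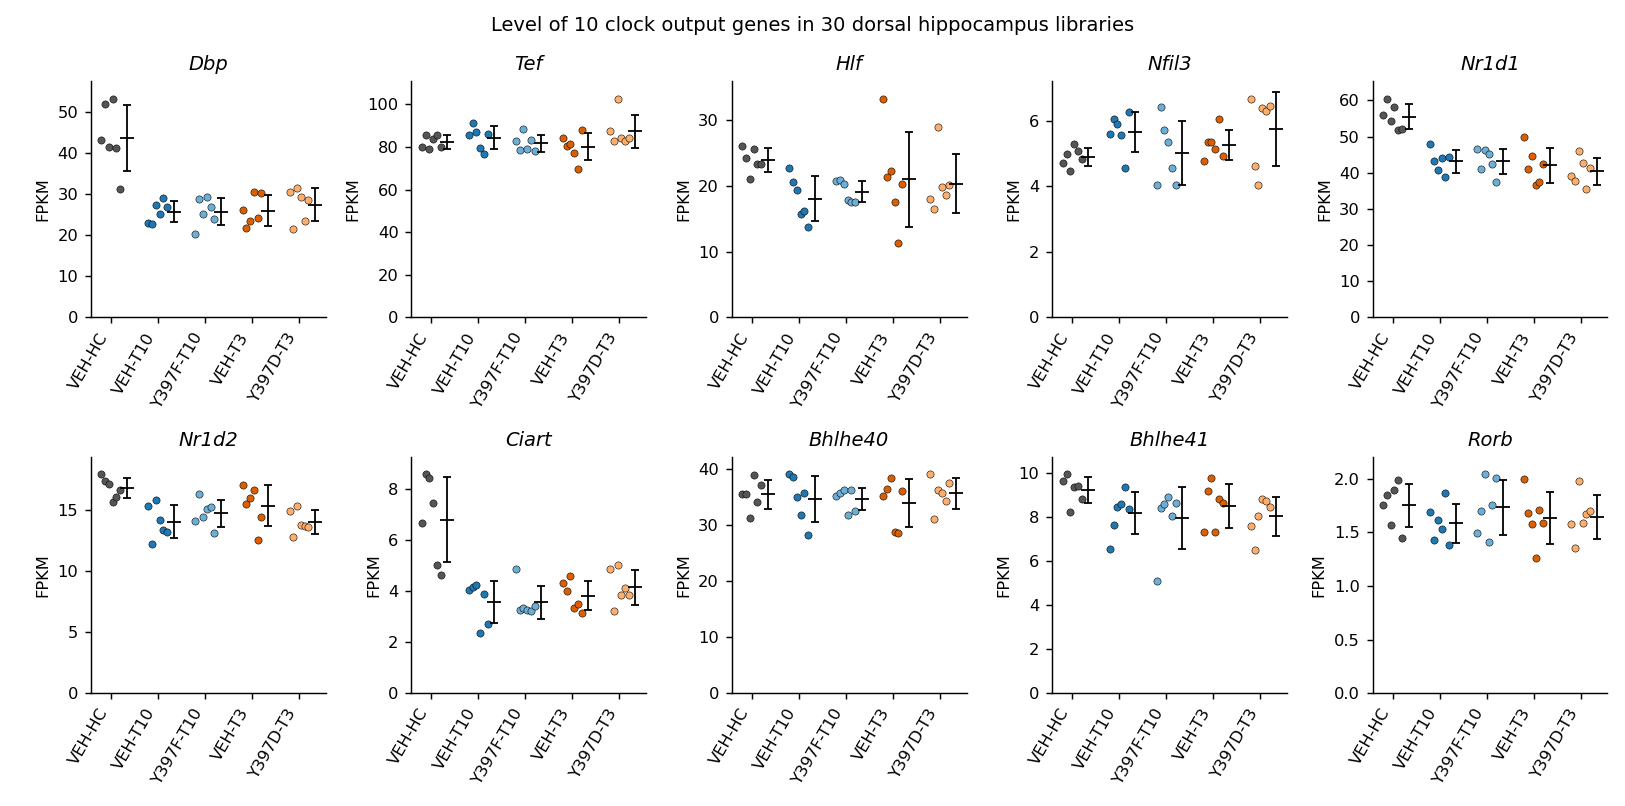
FPKM (vertical axes, from 0) of each gene in the 30 libraries, with 1 point per mouse, by condition; bars beside the points are the mean ± SD of 6 mice. Dbp, Ciart and Nr1d1 sit lower in each trained condition than in VEH-HC, with Nr1d1 showing no shared range, while Tef, Nfil3, Bhlhe40 and Rorb share their ranges across all conditions.

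Dbp, an activator widely used as a readout of the clock, was lower in every trained condition than in home-cage mice. In VEH-HC its level ran from 31.4 FPKM, with a median of 42.4, to 53.3. After 10 min of training it ran from 22.7 to 29.2 with the vehicle (VEH-T10, median 26.0) and from 20.4 to 29.2 with the mutant (Y397F-T10, median 26.0). After 3 min it ran from 21.7 to 30.5 with the vehicle (VEH-T3, median 25.2) and from 21.6 to 31.4 with the mutant (Y397D-T3, median 28.9). The lowest home-cage mouse, mouse 6, lay well below the next at 41.2 FPKM, and only the highest Y397D-T3 mouse reached it. Mean levels were 62.8% of VEH-HC in Y397D-T3, 59.5% in VEH-T3, 58.8% in Y397F-T10 and 58.7% in VEH-T10. The log2 fold changes, on the log2(FPKM + 1) scale, were -0.64, -0.72, -0.73 and -0.73 in that order, each with a standard error of 0.11. The 4 trained means lay within 1 SD of their neighbours in the order of levels.

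Ciart was lower by a similar proportion at a much lower level. Home-cage mice ranged from 4.65 to 8.59 FPKM with a median of 7.06. VEH-T10 mice ranged from 2.35 to 4.24 FPKM (median 3.96) and VEH-T3 mice from 3.16 to 4.60 (median 3.76), so neither overlapped the home-cage range. Y397F-T10 mice lay between 3.22 and 3.42 FPKM apart from mouse 1 at 4.87, and Y397D-T3 mice between 3.23 and 5.04 with a median of 3.99. These plasmid groups each reached into the home-cage range through their highest mice. Mean levels were 61.1% of VEH-HC in Y397D-T3, 56.2% in VEH-T3 and 52.4% in both groups trained for 10 min, and the log2 fold changes were -0.58 in Y397D-T3, -0.67 in VEH-T3, -0.75 in Y397F-T10 and -0.77 in VEH-T10 with a standard error of 0.13. Within VEH-HC, Ciart and Dbp were the most variable of the 10 genes, with mouse 6 lowest for both.

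Nr1d1, which encodes REV-ERBα, was lower by less but with no overlap in any condition. Its level in VEH-HC ran from 51.9 to 60.5 FPKM with a median of 55.2, whereas the highest of the 24 trained mice reached 49.97 FPKM. Medians were 40.2 FPKM in Y397D-T3, 41.7 in VEH-T3, 43.8 in Y397F-T10 and 43.7 in VEH-T10. The corresponding log2 fold changes were -0.45, -0.40, -0.36 and -0.36, with a standard error of 0.07.

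Its paralog Nr1d2, which encodes REV-ERBβ, differed less. VEH-HC mice ranged from 15.7 to 17.9 FPKM (median 16.9) and Y397D-T3 mice from 12.8 to 15.3 (median 13.7), with no overlap. The medians of VEH-T3, Y397F-T10 and VEH-T10 were 15.7, 14.8 and 13.8 FPKM, and each of these groups overlapped the home-cage range. Log2 fold changes were -0.25 in Y397D-T3, -0.13 in VEH-T3, -0.18 in Y397F-T10 and -0.25 in VEH-T10, with a standard error of 0.06.

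Besides Dbp, the PAR bZIP genes had smaller log2 fold changes. Hlf had a median of 23.8 FPKM in VEH-HC (21.0 to 26.1). In trained mice it was 19.2 in Y397D-T3 (16.5 to 29.0), 20.8 in VEH-T3 (11.4 to 33.3), 19.1 in Y397F-T10 (17.5 to 20.9) and 17.8 in VEH-T10 (13.8 to 22.7). Its log2 fold changes ran from -0.40 in VEH-T10 to -0.24 in VEH-T3 and Y397D-T3, with a standard error of 0.16, and only the Y397F-T10 mice all lay below all home-cage mice. VEH-T3 held both the lowest and the highest Hlf level of all 30 libraries. Tef, the most abundant of the family, stayed between 69.8 and 103 FPKM in all libraries, and its log2 fold changes lay between -0.04 and 0.08.

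Nfil3, the repressor of the same D-box sequences, had medians from 4.90 FPKM in VEH-HC to 6.34 in Y397D-T3. Its log2 fold changes of 0.02 to 0.18 were all above 0 and its ranges overlapped in every comparison. Bhlhe40 had medians between 35.3 and 36.1 FPKM in all 5 conditions and log2 fold changes between -0.07 and 0.01. Bhlhe41 had a median of 9.37 FPKM in VEH-HC and of 8.24 to 8.71 in the trained conditions, with log2 fold changes between -0.21 and -0.11. Rorb was at 1.26 to 2.04 FPKM throughout, with log2 fold changes between -0.09 and -0.01.

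A gene was called when its adjusted p was under 0.05 in limma (Benjamini-Hochberg over the 13184 rows). Against VEH-HC, the members called lower were Dbp, Ciart and Nr1d1 in VEH-T10, 3 of 10 beside 0.501% of all rows, and in Y397F-T10, 3 of 10 beside 0.66%. The same 3 genes were called lower in VEH-T3, beside 2.94% of all rows, and these 3 and Nr1d2 in Y397D-T3, 4 of 10 beside 3.16%. No member was called higher, where the shares of all rows were 3.91% in Y397D-T3, 2.23% in VEH-T3, 0.47% in Y397F-T10 and 0.319% in VEH-T10. All 6 trained mice lay below all 6 home-cage mice for 2 members in Y397D-T3 (3.02% of all rows), 3 in VEH-T3 (1.31%), 3 in Y397F-T10 (1.24%) and 3 in VEH-T10 (1.64%). Because the genes were selected on this difference, nothing is read from these counts. The 4 comparisons also share the same 6 home-cage mice and are not independent of one another. Median log2 fold changes of the 10 members were -0.21, -0.12, -0.19 and -0.21 in that order, and those of all tested rows were -0.03, -0.04, -0.04 and -0.03.

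These calls, a description only, did not all hold in every fit. Nr1d1 was no longer called in VEH-T10 without VEH-HC mouse 2, or in Y397F-T10 without VEH-HC mouse 2, VEH-HC mouse 4 or Y397F-T10 mouse 6, and in both it was lost when libraries were centred on their medians. Nr1d2 in Y397D-T3 was lost without Y397D-T3 mouse 2 or mouse 5 and under the same centring. With just the 12 mice from VEH-HC and VEH-T3 fitted, 0 members and 0 of all 13184 rows were called, while 2519 rows had an unadjusted p under 0.05 in limma.

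The levels of some tissue markers also differed between the conditions. The 4 hippocampal CA1 markers were present in every library, summing to 143 to 220 FPKM. Neocortex markers, a list of 7 genes of which none was at 0 and 3 (Rspo1, Foxp2 and Nxph4) averaged under 1 FPKM, summed to 33.6 to 39.7 FPKM in VEH-HC, with a median of 38.0. Their medians in the trained conditions were lower, at 31.3 FPKM in Y397D-T3 (28.9 to 42.6), 29.6 in VEH-T3 (25.1 to 49.7), 29.0 in Y397F-T10 (25.5 to 41.6) and 28.9 in VEH-T10 (25.5 to 35.5). Of the 4 markers that passed the filter, Ctgf was called lower in VEH-T10 (log2 fold change -0.92, adjusted p = 0.048, limma) and Y397D-T3 (-0.74, adjusted p = 0.044, limma). Of 5 thalamus markers, Slc17a6 was called lower in VEH-T10 at -1.08, in Y397F-T10 at -1.12 and in Y397D-T3 at -0.95, and Tcf7l2 in Y397D-T3 at -0.37, none being at 0 in any library. The 6 choroid plexus markers summed to 919 to 5597 FPKM in VEH-HC, with a median of 3149. Their medians were 126 FPKM in Y397D-T3, 1957 in VEH-T3, 57.4 in Y397F-T10 and 103 in VEH-T10, and single trained libraries ran from 11.1 to 12786 FPKM. All 6 had log2 fold changes below 0 in all 4 comparisons with VEH-HC, and none was called. The 3 CA3 markers had log2 fold changes above 0 in all 4, also without a call, and their sum had a median of 105 FPKM in VEH-HC and of 134, 117, 121 and 131 in Y397D-T3, VEH-T3, Y397F-T10 and VEH-T10. In all other lists (CA1, dentate granule, excitatory neuron, pan-neuronal, astrocyte, oligodendrocyte, microglia and endothelium), Pou3f1, Camk2a, Neurod6 and Rbfox3 were called higher in Y397D-T3, beside 3.91% of all rows. Flt1 was called higher in VEH-T3, beside 2.23%. The lists were not uniform: 2 of 4 CA1 markers in Y397D-T3 and 1 of 3 endothelium markers in VEH-T3 were below 0. All excitatory neuron and pan-neuronal markers were above 0 in Y397D-T3. No marker was called in the 3 comparisons among trained conditions. In bulk tissue, fewer cells of a type and less RNA per cell cannot be told apart.

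Across the 30 libraries the members followed the neocortex markers to very different degrees. The Pearson correlation of log2 levels with the summed markers was 0.84 for Hlf, 0.70 for Nr1d1, 0.64 for Ciart, 0.52 for Nr1d2 and 0.38 for Dbp. After each condition's mean was removed it was 0.80 for Hlf, 0.74 for Nr1d1, 0.45 for Ciart, 0.37 for Nr1d2 and -0.06 for Dbp. The VEH-T3 mouse with the highest Hlf, 33.3 FPKM, and the Y397D-T3 mouse with the highest, 29.0 FPKM, also had the highest marker sums of their groups. Hlf ran against the CA3 markers to a like degree, at -0.81 over all libraries and -0.82 within conditions, and against the oligodendrocyte markers at -0.66 and -0.77. Nr1d1 was at -0.45 and -0.62 with the oligodendrocyte markers in the same order. Nr1d2 was at -0.68 and -0.47 with the excitatory neuron markers and at -0.63 and -0.47 with the CA3 markers. Bhlhe41 followed other lists, at 0.73 over all libraries and 0.69 within conditions with thalamus markers. With astrocyte markers it was at 0.70 and 0.81, and with microglia markers at 0.68 and 0.80, in that order. It ran against the pan-neuronal markers at -0.64 and -0.73. These correlations describe 30 libraries that share tissue makeup and condition.

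**Figure D2:**
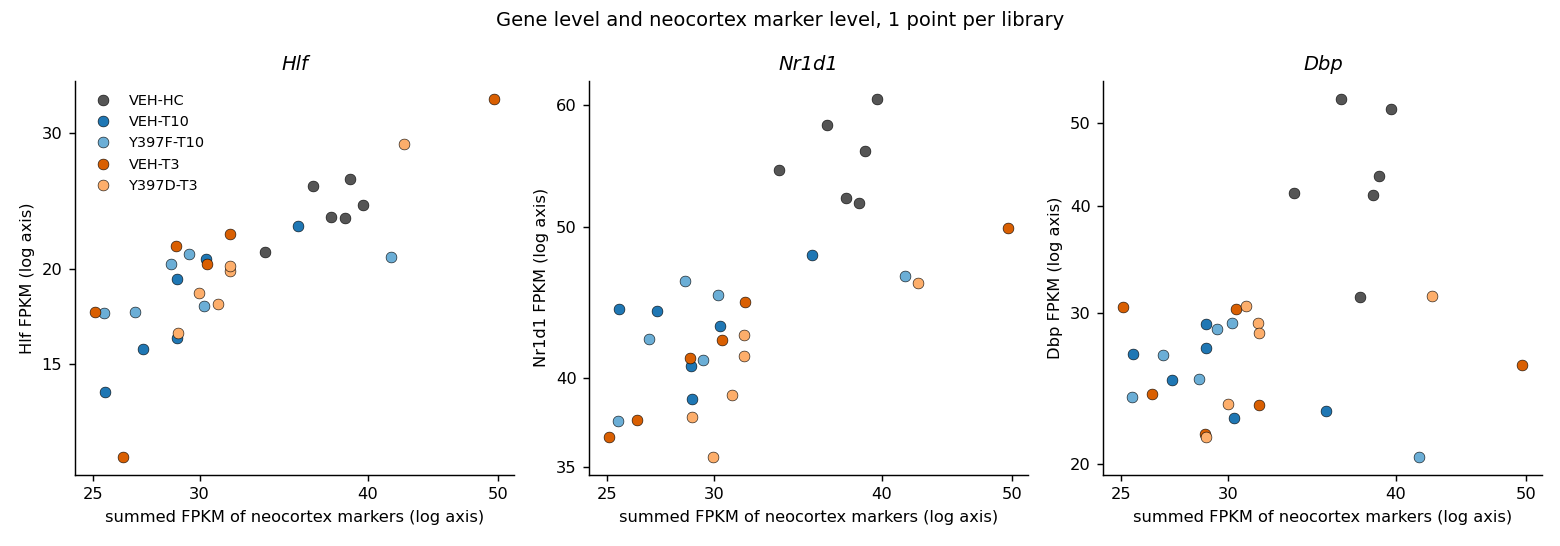
FPKM of Hlf, Nr1d1 and Dbp (vertical, log axis) against the summed FPKM of 7 neocortex markers (horizontal, log axis), with 1 point per library coloured by condition. Hlf rises along the marker axis in all conditions together (r = 0.84), whereas 5 of the 6 VEH-HC points for Dbp lie above every trained library at any marker level.

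When the neocortex marker level was added to the fit as a covariate, a choice made after seeing the data, the home-cage differences took the following values. Dbp was at -0.66, -0.73, -0.75 and -0.75 in Y397D-T3, VEH-T3, Y397F-T10 and VEH-T10. Ciart was at -0.48, -0.55, -0.60 and -0.60 in that order. Nr1d1 was at -0.37, -0.29, -0.23 and -0.22, and was no longer called in Y397F-T10 and VEH-T10. Hlf was at -0.04, 0.02, 0.00 and -0.05. With the choroid plexus marker level as the covariate, Dbp lay between -0.71 and -0.62, Ciart between -0.83 and -0.66, Nr1d1 between -0.48 and -0.38 and Hlf between -0.49 and -0.28. Nr1d2 was then no longer called in Y397D-T3. These values again describe genes selected on this difference, and the part of tissue makeup in it was not tested.

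**Figure D3:**
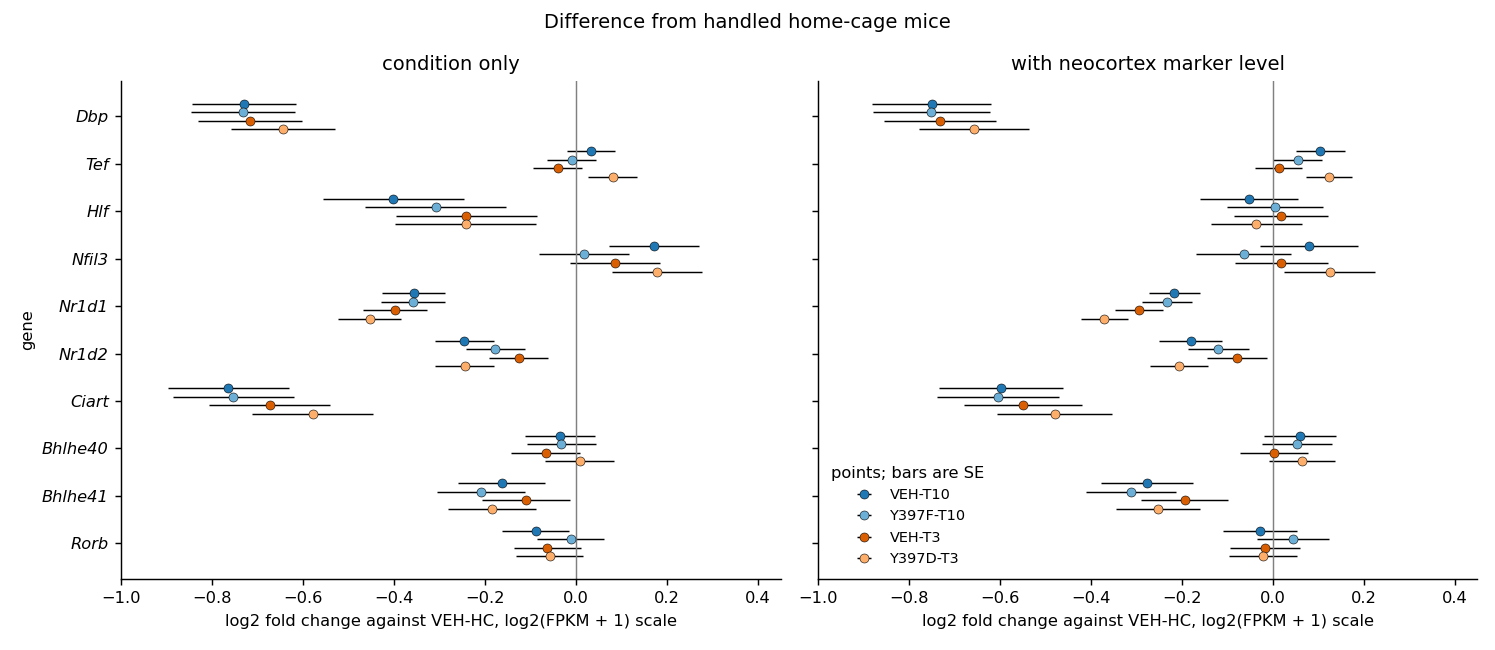
Log2 fold change of the 10 genes (rows) in the 4 trained conditions (colours) against VEH-HC, on the log2(FPKM + 1) scale, from the fit on condition alone (left) and with the neocortex marker level added (right); bars are standard errors. Dbp lies between -0.73 and -0.64 on the left and between -0.75 and -0.66 on the right, and Hlf between -0.40 and -0.24 on the left and between -0.05 and 0.02 on the right.

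Dbp and Nr1d1 each share exon sequence with a gene on the opposite strand, and how the libraries treated strand is not given in the sources used here. On mm10, Dbp (chr7:45705088-45710203) shares 539 exon bases, 18.01% of its exons, with the sphingosine kinase gene Sphk2, and Nr1d1 (chr11:98767932-98775333) shares 263 bases, 8.55%, with the thyroid hormone receptor gene Thra. Reads there cannot be assigned to either gene. Thra, at a mean of 283 FPKM, had log2 fold changes between -0.08 and 0.07 against VEH-HC. Sphk2, at 13.8 FPKM, had log2 fold changes between -0.17 and -0.10 (smallest adjusted p = 0.051, limma). Ciart (chr3:95878503-95882251) shared no exon base with another annotated gene, whereas Bhlhe41 shared 1280 bases with an annotated transcript of unknown coding status, Tef 193 and Bhlhe40 118.

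Whether the members differed among the trained conditions could be tested, because the selection did not use those contrasts. The length of training was compared first. Between VEH-T10 and VEH-T3, 0 of 10 members were called, beside 0.0455% of all rows. Dbp differed by -0.01 on the log2 scale (95% interval -0.25 to 0.22), Ciart by -0.09 (-0.36 to 0.18) and Nr1d1 by 0.04 (-0.10 to 0.18). The widest interval was that of Hlf, from -0.48 to 0.16, and the smallest adjusted p of the 10 was 0.65 in limma, for Nr1d2 at -0.12.

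No member was called between a point mutant and the vehicle group of the same training period. Ss18l1, the gene for CREST that the plasmids carry, was itself at a similar level with and without plasmid, its log2 difference being 0.06 (95% interval -0.05 to 0.18) in Y397F-T10 and 0.07 (-0.05 to 0.18) in Y397D-T3 against their vehicles, so the table gives no sign of how much plasmid was expressed. In Y397F-T10 against VEH-T10, 0 of 10 members were called and 0% of all rows. Dbp, Ciart and Nr1d1 differed by 0.00 (-0.24 to 0.23), 0.01 (-0.26 to 0.28) and 0.00 (-0.14 to 0.14). In Y397D-T3 against VEH-T3, 0 of 10 members were called, beside 0.00758% of all rows, and the same genes differed by 0.07 (-0.16 to 0.31), 0.09 (-0.18 to 0.37) and -0.06 (-0.20 to 0.09). Tef was the nearest to a difference there, at 0.12 (0.01 to 0.23), with an adjusted p of 0.61 in limma. All 30 intervals lay between -0.48 and 0.41, and a missed threshold with 6 mice a group does not show that the conditions act alike.

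**Figure D4:**
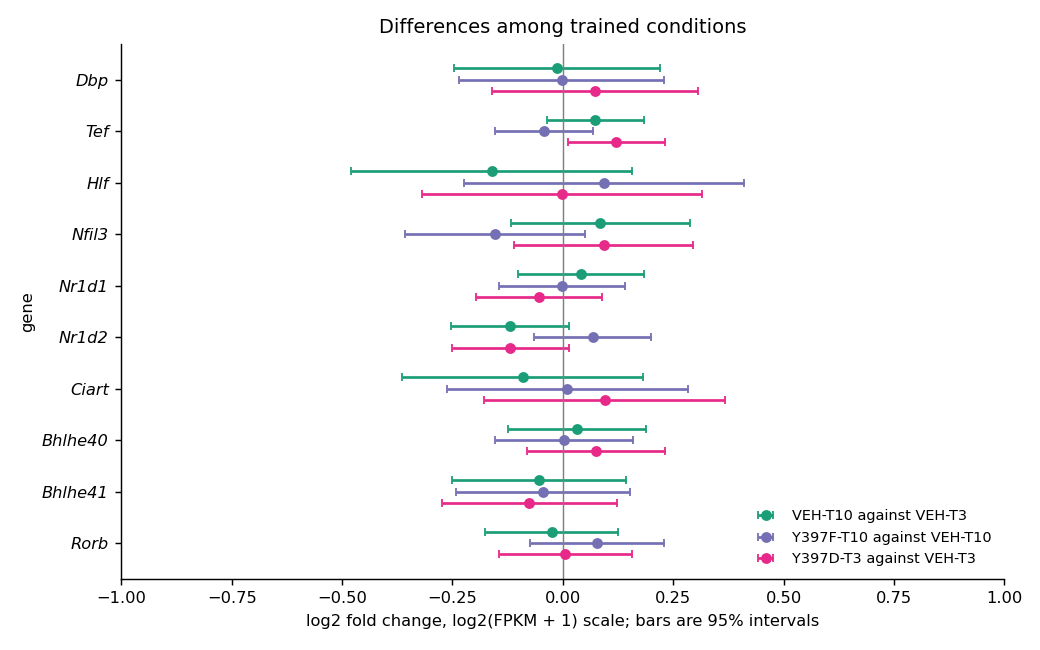
Log2 fold change of the 10 genes (rows) in 3 comparisons among trained conditions (colours), on the log2(FPKM + 1) scale; bars are 95% intervals. Every interval spans 0 except that of Tef in Y397D-T3 against VEH-T3, whose lower end is at 0.01.

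Of the other genes of the clock circuit, 17 of the core loop and 10 further clock-driven genes were listed, and 26 of the 27 passed the filter (Timeless did not). Per2, a repressor of the core loop, was the 1 gene of this list called in all 4 comparisons with home-cage mice, and it was higher. Its level ran from 4.39 to 5.32 FPKM in VEH-HC, with a median of 4.65. The medians were 6.70 FPKM in Y397D-T3 (6.30 to 7.35), 6.32 in VEH-T3 (4.87 to 7.68), 6.21 in Y397F-T10 (5.29 to 7.68) and 6.36 in VEH-T10 (6.04 to 6.87). VEH-T10 and Y397D-T3 did not overlap the home-cage range. The log2 fold changes were 0.44 (adjusted p = 0.0013), 0.36 (0.011), 0.35 (0.030) and 0.38 (0.015) in that order in limma. Per1 lay between 0.00 and 0.09 and was not called, nor was Npas2, a paralog of Clock, at -0.38 to -0.28.

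Other calls in the circuit were fewer. Klf9, a clock- and glucocorticoid-driven factor, was higher in Y397D-T3 by 0.35 (adjusted p = 0.0019, limma). It was higher by 0.26 in VEH-T3 (0.021) and by 0.26 in Y397F-T10 (0.038). Clock was higher by 0.17 (0.048), 0.24 (0.013) and 0.23 (0.031) in these conditions in that order. Arntl, the target of REV-ERB repression, was higher by 0.27 in Y397D-T3 (0.033) and was at 0.12 to 0.13 without a call in the others. Tspan4 was lower by 0.67 in Y397D-T3 (0.028). All these adjusted p values are from limma, over the 13184 rows. The circuit list, Per2 included, was chosen with earlier results of these data known.

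Of the 26 genes, 4 were called higher and 1 lower in Y397D-T3, 3 higher in VEH-T3, 3 higher in Y397F-T10 and 1 higher in VEH-T10, with median log2 fold changes of 0.00, 0.04, -0.02 and 0.00. These stand beside 3.91%, 2.23%, 0.47% and 0.319% of all rows called higher. Per2 was called in 12 of 12 fits that left out 1 library in VEH-T10, VEH-T3 and Y397D-T3, and in 7 of 12 in Y397F-T10. In Y397F-T10, 1 of the 26 was called without Y397F-T10 mouse 4 or 5, and 0 were called without VEH-HC mouse 2, 4 or 5 or without Y397F-T10 mouse 3 or 6, and with the neocortex covariate. In Y397D-T3, Klf9 was called in 12 of 12 such fits, Tspan4 in 7, Arntl in 4 and Clock in 3, and the count of 5 was 2 or 3 without VEH-HC mouse 1, 2, 3, 4 or 5 or without Y397D-T3 mouse 2, 5 or 6. When only the 12 libraries compared were fitted, 0 of the 26 were called in Y397F-T10 and in VEH-T3, 2 in VEH-T10 and 8 in Y397D-T3, beside 0.326%, 0%, 2.43% and 14% of all rows, Per2 being among both the 2 and the 8. In VEH-T3 the count was 5 without VEH-T3 mouse 1, and in VEH-T10 it was 2 without VEH-T10 mouse 1 or 2, when the clock-driven deubiquitinase gene Usp2 was added. Usp2 was between -0.40 and -0.27 in the 4 comparisons, with an adjusted p of 0.051 in VEH-T10 in limma. No gene of the list was called in any of the 3 comparisons among trained conditions, in which 4 (between the training periods), 3 (for Y397D) and 2 (for Y397F) had an unadjusted p under 0.05 in limma, beside 8.15%, 7.87% and 3.78% of all rows.

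**Figure D5:**
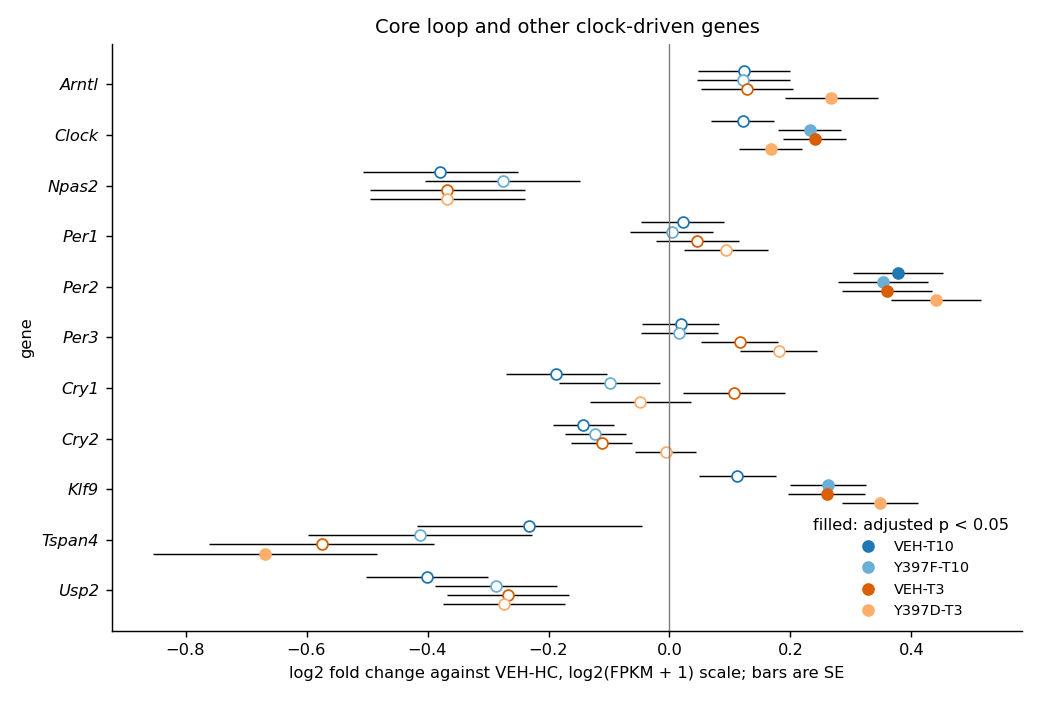
Log2 fold change of 11 genes of the clock circuit (rows) in the 4 trained conditions (colours) against VEH-HC, on the log2(FPKM + 1) scale; bars are standard errors and filled points had an adjusted p under 0.05. Per2 is filled in all 4 conditions, between 0.35 and 0.44, and Per1 in none.

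The members were set beside one another across the 30 libraries. Dbp, Ciart and Nr1d1 had pairwise Pearson correlations of 0.70 to 0.71, and with Per2 Dbp was at -0.71. Dbp and Ciart were selected for being lower after training, so their correlation over all libraries follows in part from the selection. Nothing is read from it. Once each condition's mean was removed, Dbp was at 0.16 with Ciart, 0.16 with Nr1d1 and -0.22 with Per2. Little of the likeness of Dbp to these genes thus lay within conditions. Ciart was at 0.36 with Nr1d1 within conditions. Hlf behaved differently, at 0.64 with Nr1d1 and 0.50 with Tef over all libraries and 0.67 and 0.68 within conditions.

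Among all tested genes, the levels most like those of Dbp over 30 libraries were those of Zbtb22 (r = 0.84), Nim1k (0.81), Hmgb3 (0.80), Mapk3 (0.80) and C030006K11Rik (0.79). The lowest correlations with Dbp were those of Homer1 (-0.84), a postsynaptic scaffold gene with an activity-induced short form, Nin (-0.82) and Nrp1 (-0.81). Within conditions these were 0.56, 0.74, 0.56, 0.52 and 0.58, and -0.51, -0.60 and -0.71. For Ciart the highest were Gm10409, present as 2 rows (0.79 each), Prss12 (0.78), Tekt5 (0.77) and the thalamus marker Slc17a6 (0.76), and the lowest were Lman2l, Wdfy2 and Dnajc1 (all -0.74). Within conditions Slc17a6 was at 0.50 with Ciart. The summed thalamus markers were at 0.02 with Ciart over all libraries and at -0.38 within conditions. The genes were picked as the extremes of 13184 correlations over libraries that share condition, tissue makeup and depth.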

How the data were processed

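RNA from 30 dorsal hippocampus hemispheres was sequenced as paired-end reads, and the authors deposited FPKM values per gene, made with TopHat2 2.1.1 and Cufflinks 2.2.1 on mm10 according to the submitters' processing notes. FPKM is scaled by the authors to transcript length and library size, so counts and absolute depth are unknown and the number of mice limits the precision. Relative depth, from the size of the steps between 2642 low rows, ran from 0.862 to 1.19 of the median library. The labels name more than 1 sequencing instrument without assigning them to libraries. Groups came from the sample titles. The 30 value columns were all used.

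Values were analysed as log2(FPKM + 1) in limma 3.58.1 (R 4.3.3) for rows with a mean of at least 1 FPKM (13184 of 24883). One model held all 30 libraries with 1 coefficient per condition and empirical Bayes moderation with a trend, and p-values were adjusted by the Benjamini-Hochberg method over all tested rows with a threshold of 0.05. The study itself used Cyber-T, whose p-values its methods describe as corrected through pooled variance estimates, and kept genes with p under 0.05. Fold changes on this scale understate the change of low genes. The limma step was tested on simulated data. The 10 members, the clock circuit list, the marker lists and the motifs were chosen with earlier results of these data known. The text names all 10 members, the circuit genes called in any comparison with core loop genes needed to describe the count, and the 5 highest and 3 lowest correlations with Dbp and with Ciart. Usp2, Thra, Sphk2 and Ss18l1 were named after their values were seen. Replicate numbers were not treated as pairing the mice. Of 60 pairs of libraries sharing a number, 24 had deviations from the condition means correlated above 0.1. The correlations of these pairs ran from -0.50 to 0.84. Their median was 0.042, against 0.0065 for pairs with different numbers. Whether the numbers mark a shared step of handling was not tested. Alternatives were a pseudocount of 0.1, no filter, median centring, only the 12 libraries compared, a replicate block, summed symbol rows, unadjusted p and leaving out each library. Marker level covariates were added after seeing the data. Gene positions came from GENCODE on GRCm38 (mm10) and promoter windows from RefSeq.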

Additional observations from a re-analysis of the deposited data

Results flagged for a closer look

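In 4 of the 50 groups of 6 values formed by the 10 genes and 5 conditions, 1 mouse stood apart from the other 5 by Dixon's criterion, which chance meets in about 1 in 20 groups. In Y397D-T3, mouse 3 had the highest Tef at 102.8 FPKM, where the others lay between 82.7 and 87.6, and the highest Hlf at 29.0 FPKM, where the others lay between 16.5 and 20.2. This mouse also had the highest neocortex marker sum of its group, at 42.6 FPKM. In Y397F-T10, mouse 1 had the highest Ciart at 4.87 FPKM, with the others between 3.22 and 3.42, and the lowest Bhlhe41 at 5.10 FPKM, with the others between 8.03 and 8.92. Its neocortex marker sum, 41.6 FPKM, was the highest of its group. The part of tissue makeup in these values was not tested.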

How the results depend on the processing

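FPKM without counts, 6 mice a group, no hour of collection given per mouse and differing levels of some tissue markers limit these values. The 10 members were selected because Dbp and Ciart were lower against VEH-HC. Persistence of the members' calls across settings therefore supports nothing. In VEH-T3, 0 members and 0% of all rows were called when only the 12 libraries compared were fitted. With unadjusted p, 5 members passed in Y397F-T10, beside 16.9% of all rows, 5 in VEH-T10, beside 14.9%, and 1 (Tef) in Y397D-T3 against VEH-T3, beside 7.87%.

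For the 26 clock circuit genes, unadjusted p gave 11 in Y397D-T3, 11 in VEH-T3, 10 in Y397F-T10 and 12 in VEH-T10 against home cage, beside 24.9%, 21.6%, 16.9% and 14.9% of all rows. It gave 4 between training periods, 3 for Y397D and 2 for Y397F against their vehicles, beside 8.15%, 7.87% and 3.78%. The 12 libraries alone gave 8 in Y397D-T3, 0 in VEH-T3, 0 in Y397F-T10 and 2 in VEH-T10, beside 14%, 0%, 0.326% and 2.43%. The replicate block gave 5 in VEH-T3 and 2 in VEH-T10, beside 5.63% and 1.23%, added Nr1d2 in VEH-T10 and moved no other count of calls by over 1.5 times. The neocortex covariate gave 0 in Y397F-T10 and 2 in VEH-T10, beside 0.288% and 0.44%, and the choroid plexus covariate 3 in Y397D-T3, beside 3.72%. Leaving out 1 library gave 2 to 5 in Y397D-T3, 2 to 5 in VEH-T3, 0 to 3 in Y397F-T10 and 1 to 2 in VEH-T10. The cause of these changes was not tested.

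Of 560 log2 differences of members under other settings, 547 stayed within the spread or on their side of the threshold, 5 moved further and 8 changed sign near 0 among trained conditions. In Y397F-T10 against VEH-T10 these were Bhlhe40 at -0.0022 with median centring and -0.0069 with the neocortex covariate, Ciart at -0.0064 with the neocortex covariate and Nr1d1 at 0.00080 with the choroid plexus covariate. In Y397D-T3 against VEH-T3 they were Hlf at 0.00019 with a pseudocount of 0.1 and 0.014 with median centring, and Rorb at -0.0035 with the neocortex and -0.025 with the choroid plexus covariate. Sign changes against VEH-HC were not in this count of 8. With the neocortex covariate Hlf moved from -0.31 to 0.0045 in Y397F-T10 and from -0.24 to 0.018 in VEH-T3. Bhlhe40, Tef, Nfil3 and Rorb also changed sign against VEH-HC in at least 1 comparison with this covariate. Leaving out 1 library gave 840 refitted differences over all comparisons and changed 40 signs among trained conditions. The ranges were -0.053 to 0.038 for Bhlhe40, -0.099 to 0.061 for Bhlhe41, -0.074 to 0.054 for Ciart, -0.040 to 0.059 for Dbp and -0.032 to 0.037 for Nr1d1 in Y397F-T10 against VEH-T10. They were -0.16 to 0.14 for Hlf and -0.038 to 0.044 for Rorb in Y397D-T3 against VEH-T3, and -0.015 to 0.087 for Bhlhe40, -0.061 to 0.033 for Dbp and -0.069 to 0.013 for Rorb in VEH-T10 against VEH-T3. Ranges against VEH-HC, not in this count of 40, also crossed 0. Bhlhe40 ran from -0.070 to 0.020 in VEH-T10 and from -0.026 to 0.046 in Y397D-T3. In Y397F-T10, Nfil3 ran from -0.046 to 0.066, Rorb from -0.045 to 0.024 and Tef from -0.032 to 0.0033.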
